A study of Homo sapiens with 4 samples.

Results

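The 34 genes described here encode the enzymes and transporters that take glucose through glycolysis to lactate, the gate into the mitochondrial oxidation of pyruvate, and part of the pentose phosphate pathway. They were taken by symbol from a list that was chosen with earlier results of these data known. Each of the 34 matched 1 entry of the 23444 in the deposited tables. All 34 passed the filter on low counts, as did 15293 entries in all. RNA had been sequenced in 4 libraries from U87-MG, a long-established glioblastoma line of human origin. In 2 libraries, labelled MAGED2 knockdown and called shMAGED2 here, a short hairpin RNA had been directed against MAGED2, a gene of the melanoma antigen family; the other 2, labelled negative control, are the shCON libraries. The cells of both groups are of the same line and culture medium. The series design calls the knockdown stable, whereas the labels' treatment protocol names hairpins against ZDHHC15 from a lentiviral vector set, transient transfection by lipofection, a scrambled hairpin as the control, and harvest after 36 h. How many hairpins or clones were used was not stated.

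Total counts were 31160205 and 36234336 in shMAGED2 replicates 1 and 2, and 34235565 and 28673774 in shCON replicates 1 and 2. MAGED2, the gene named as the target, had 526 and 795 counts in shMAGED2 and 6090 and 5225 in shCON, or 11.2% of the control level once scaled to library size. ZDHHC15 had 0 counts in each library, where 3 counts, the limit that a count of 0 allows, equal at most 0.105 CPM (counts scaled to the library total). The astrocytic and glioma markers GFAP, OLIG2, NES, S100B, SOX2 and AQP4 summed to 22.1 and 22.5 CPM in shMAGED2 and 12.7 and 14.6 CPM in shCON, with AQP4 at 0 in each library and SOX2 at no more than 0.11 CPM. Within that list NES rose, OLIG2 fell, and GFAP had 0.951 and 1.39 CPM in shMAGED2 and 2.26 and 3.03 CPM in shCON. The mesenchymal markers VIM, CD44, FN1, COL1A1 and TNC summed to 12495 and 10612 CPM in shMAGED2 and 11137 and 10854 CPM in shCON, and COL1A1 alone of the 5 passed the test, with a fall. The part of these marker changes in the results below was not tested. Of the markers of other cell types, the endothelial set stayed at or below 2.72 CPM and the epithelial set at or below 0.68 CPM in each library, the neuronal set lay between 10.9 and 18.4 CPM, almost all of it SNAP25, and the leukocyte set between 380 and 603 CPM, almost all of it CD68, with AIF1 at 0. The shMAGED2 libraries were less alike than the shCON libraries (chi-square per degree of freedom over genes 89.5 against 7.42). Mitochondrially encoded genes took 10.1% and 4.87% of the counts in shMAGED2 replicates 1 and 2, and 3.92% and 3.90% in shCON. The labels do not say whether replicates came from separate cultures, so p-values reflect only how far these libraries spread, which may be technical. In RNA from whole cultures, a change in the make-up of the cells and a change of RNA per cell cannot be told apart.

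As background, glycolysis first spends ATP to turn glucose into a doubly phosphorylated fructose and to split it, and then regains ATP and reduces NAD as the triose phosphates become pyruvate. Lactate dehydrogenase re-oxidises the NADH by reducing pyruvate to lactate, which leaves the cell through proton-linked monocarboxylate transporters. Pyruvate dehydrogenase instead sends pyruvate into the citric acid cycle and is switched off by its kinases. The pentose phosphate pathway branches off at glucose phosphate and yields NADPH and ribose phosphate. Many tumours, glioblastoma among them, run glycolysis to lactate at a high rate in the presence of oxygen. Most steps have several isoforms encoded by separate genes, which differ in tissue distribution, affinity and regulation.

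The genes of glucose metabolism did not move as a block. LDHA, HK1, PDK3, PFKP, GPI, PGAM1, ENO1 and PKM rose in shMAGED2, whereas ALDOC, PGD, PFKFB2, SLC2A3, HK2 and TKT fell. Thus 8 of 34 members (23.5%) were higher, against 12.3% of all genes tested, and 6 of 34 (17.6%) were lower, against 11.6% (edgeR quasi-likelihood fit, p adjusted by Benjamini-Hochberg, threshold 0.05). In either direction 14 of 34 passed (41.2%), against 23.9% of all genes tested, a difference of shares that was not tested. The median log2 change, shMAGED2 minus shCON, was 0.21 over the members and 0.00 over all 15293 genes. The groups did not overlap in CPM for 23 of the 34 members (67.6%), a share close to the 66.0% of all genes tested. The members took 1.85% and 1.98% of all counts in shMAGED2, and 1.71% and 1.70% in shCON.

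**Figure D1:**
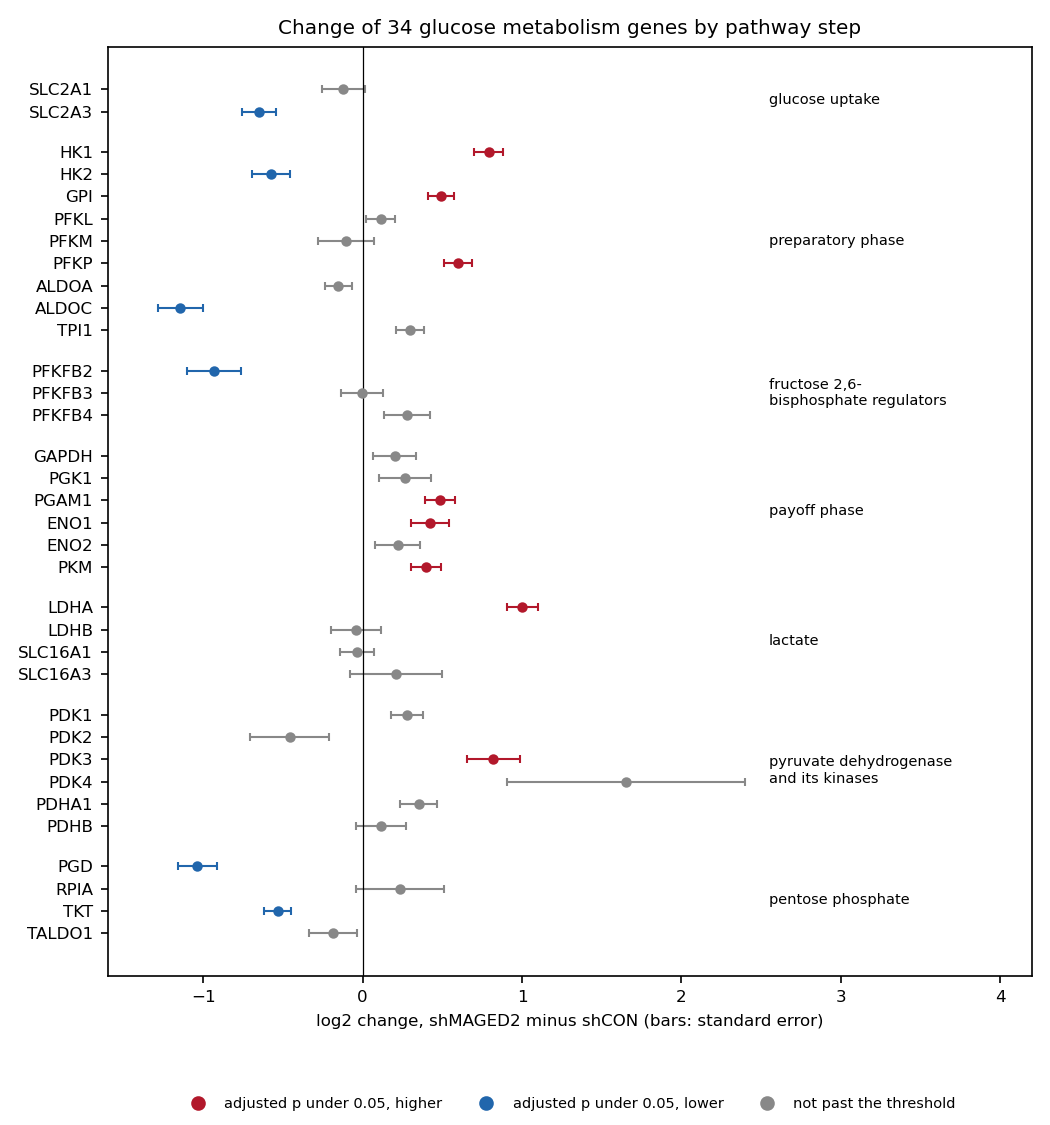
Log2 change (shMAGED2 minus shCON, x axis) of each of the 34 members, grouped from top to bottom by pathway step; points are edgeR estimates from 2 libraries a group, bars their standard errors, red and blue mark an adjusted p under 0.05. Higher and lower members stand side by side within the preparatory phase, while all 6 points of the payoff phase lie above 0 and 3 of the 4 pentose phosphate points lie below it.

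How many members passed depended on which libraries of either group were in the fit, and so did the number passing among all genes tested. Leaving out shCON replicate 1, of the 14 members only ALDOC, LDHA and PGD still passed. Leaving out shCON replicate 2, of the 14 only ALDOC, LDHA, PFKFB2 and PGD did. Fewer of all genes tested passed as well. In these fits the spread came from the shMAGED2 pair alone, since the lone shCON library has none of its own and is assumed to vary alike. Leaving out shMAGED2 replicate 1 or 2 instead, more members passed, the 14 among them, and more of all genes tested passed too. There the spread came from the shCON pair alone, which was the closer pair, so these calls are no further support for the 14.

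Summed per length over the members of a step, levels were higher in shMAGED2 for the payoff phase and lower for the 4 pentose phosphate members. The 6 genes of the payoff phase summed to 5739 and 5604 FPKM (fragments scaled to gene length and library total) in shMAGED2, and to 4694 and 4646 FPKM in shCON. The 4 pentose phosphate genes summed to 300.1 and 331 FPKM in shMAGED2, and to 558 and 552 FPKM in shCON. In CPM these genes summed to 688 and 678 in shMAGED2 and 1068 and 1056 in shCON, a smaller fall than in FPKM. Of 7 other pentose phosphate genes tested, 2 rose (28.6%, against 12.3% of all genes tested) and 0 fell (against 11.6%). For the payoff and pentose phosphate sums, and for glucose uptake, the groups lay apart in FPKM by more than either pair did. The close payoff sums of the shMAGED2 pair held opposite orders of single genes. GAPDH had 2871 and 2230 FPKM in shMAGED2 replicates 1 and 2, against 2213 and 2220 FPKM in shCON. ENO1 had 1273 and 1670 FPKM in shMAGED2, against 1155 and 1130 FPKM in shCON. The pair of glucose transporters summed to 40.7 and 50.4 FPKM in shMAGED2 and 67.5 and 69.9 FPKM in shCON. The 3 PFKFB genes (23.4 and 30.8 FPKM in shMAGED2, 32.2 and 33.4 FPKM in shCON) did not overlap. Neither did the 6 genes of pyruvate dehydrogenase and its kinases (99.5 and 110.6 FPKM in shMAGED2, 97.4 and 97.1 FPKM in shCON). In both of these sums the shMAGED2 pair spread by more than the gap between the groups. The 4 lactate genes summed to 1013 and 1482 FPKM in shMAGED2 and 969 and 932 FPKM in shCON. In CPM the same 4 genes summed to 2141 and 2559 in shMAGED2 and 1597 and 1591 in shCON, so that replicate 1 of shMAGED2 was near the shCON libraries in FPKM and well above them in CPM. The 9 genes of the preparatory phase overlapped, with 2068 and 2199 FPKM in shMAGED2 and 2148 and 2119 FPKM in shCON, but did not overlap in CPM, with 4272 and 4248 CPM in shMAGED2 and 3991 and 3932 CPM in shCON.

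**Figure D2:**
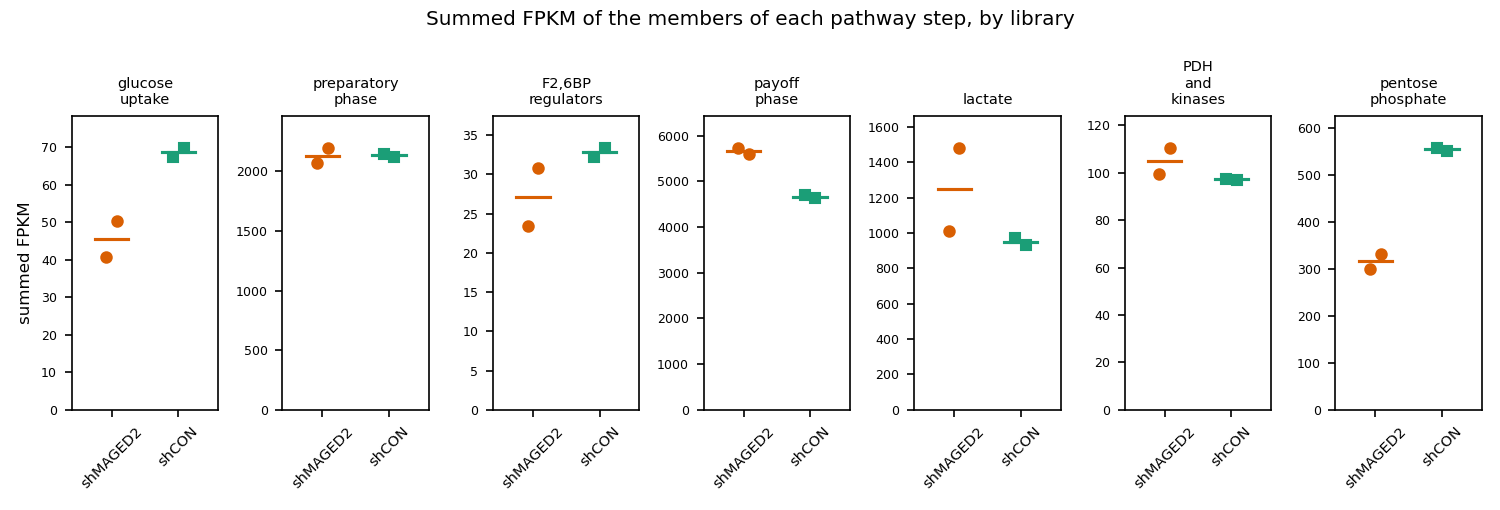
Summed FPKM (y axis, from 0, a separate scale per panel) of the members of each of 7 pathway steps; each point is 1 library and each line the mean of 2 libraries, shMAGED2 in orange and shCON in green. The pentose phosphate sum is 315.8 ± 22.2 FPKM in shMAGED2 and 554.9 ± 4.36 FPKM in shCON, and the payoff sum 5671 ± 95.4 and 4670 ± 33.5 FPKM (SD, n = 2 each).

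Glucose enters these cells through facilitative transporters, of which SLC2A3 (GLUT3, a high-affinity transporter best known from neurons) had more transcript per length than SLC2A1 (GLUT1, the basal transporter of most cells). SLC2A3 (chromosome 12, 7919230 to 7936275, minus strand; genes here and below are protein-coding and placed on hg38 by GENCODE 29) fell to 132 and 152 CPM in shMAGED2, against 222 and 224 CPM in shCON. Both shMAGED2 libraries lay below both shCON libraries, and the log2 change was −0.65 (SE 0.11, edgeR Benjamini-Hochberg adjusted p = 0.00993). SLC2A1 had 40.6 and 46.7 CPM in shMAGED2 and 44.1 and 50.8 CPM in shCON, with overlapping groups (log2 change −0.12, SE 0.13, adjusted p = 0.554 in the same edgeR fit). In FPKM, SLC2A3 held 75.3% of the sum of both in each shMAGED2 library, against 82.5% and 80.5% in the shCON libraries. With shCON replicate 1 or 2 left out, the edgeR adjusted p of SLC2A3 was 0.0923 and 0.0891.

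The hexokinases, which trap glucose in the cell by phosphorylating it, moved in opposite directions. HK1, the constitutive isoform of brain and most tissues (chromosome 10, 69269984 to 69401884, plus strand), rose to 664 and 611 CPM in shMAGED2, against 371 and 365 CPM in shCON (log2 change 0.79, SE 0.09, edgeR adjusted p = 0.0034). HK2, the inducible isoform that many tumours express (chromosome 2, 74833981 to 74893359, plus strand), fell to 208 and 253 CPM in shMAGED2, against 337 and 349 CPM in shCON (log2 change −0.57, SE 0.12, edgeR adjusted p = 0.0203). The groups did not overlap for either gene. Per length, HK1 had 5.11 and 3.85 times the FPKM of HK2 in shMAGED2, against 1.76 and 1.68 times in shCON, so that its share of the hexokinase FPKM was 81.5 ± 3.01% in shMAGED2 and 63.2 ± 0.81% in shCON (SD, n = 2 each). For this and each other isoform share, an exact permutation test of 2 against 2 libraries cannot give a p below 0.333, and the shares are descriptions. With either shCON library left out in turn, the edgeR adjusted p was 0.0591 and 0.0548 for HK1, and 0.134 and 0.165 for HK2.

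The windows around the annotated starts of these isoforms, and below of the aldolases and lactate dehydrogenases, are printed because the changes of sister genes differed. Each window runs from 250 bases before to 50 bases after a RefSeq start (GRCh38.p14), read 5′ to 3′ on the gene's strand. A gene can have other starts, and only the first listed start of each member was used. Whether that start is used in these cells was not measured. Capitals mark ACGTG and GCGTG, the core that hypoxia-inducible factors are known to bind, on either strand (CACGT and CACGC on the other), so that CACGTG, the E-box that MYC with MAX is known to bind, counts as a match on each strand. HK1 (chr10:69269750-69270049, plus strand) has 0 matches and HK2 (chr2:74833877-74834176, plus strand) has 3.
HK1: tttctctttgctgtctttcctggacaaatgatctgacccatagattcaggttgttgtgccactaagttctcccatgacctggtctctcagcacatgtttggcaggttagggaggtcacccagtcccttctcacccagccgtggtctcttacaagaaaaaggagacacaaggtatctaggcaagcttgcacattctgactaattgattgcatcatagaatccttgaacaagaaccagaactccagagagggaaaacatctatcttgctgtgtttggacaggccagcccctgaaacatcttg
HK2: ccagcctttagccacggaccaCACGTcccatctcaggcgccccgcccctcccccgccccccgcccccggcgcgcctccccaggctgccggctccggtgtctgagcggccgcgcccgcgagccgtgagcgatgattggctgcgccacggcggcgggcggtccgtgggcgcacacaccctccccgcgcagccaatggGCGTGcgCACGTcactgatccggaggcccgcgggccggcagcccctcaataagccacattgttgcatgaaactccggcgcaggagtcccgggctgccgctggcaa

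Such matches are common. At least 1 match to ACGTG or GCGTG stood in 48.4% of all 35116 RefSeq windows of that length, and in 20 of the 31 member windows at hand (64.5%; SLC2A3, PFKFB2 and SLC16A1 were not matched to a window). Among the 8 members that rose, 5 windows had a match, as had 3 of the 4 windows of members that fell and 12 of the 19 windows of members not called. CACGTG stood in 7.26% of all windows and in 4 of the 31 member windows. The letters TGATGNAA, an element that ATF4 and C/EBP factors are known to bind, stood on either strand in 3.62% of all windows and in 1 member window, that of HK1. These are matches of letters and no binding was measured. The set of all windows can hold several starts of a gene, whereas each member has only its first listed start.

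Of the enzymes between hexokinase and the triose phosphates, GPI and PFKP rose, ALDOC fell, and PFKL, PFKM, ALDOA and TPI1 did not pass the test. GPI, the isomerase that makes fructose phosphate (chromosome 19, 34359480 to 34402413, plus strand), rose to 411 and 403 CPM in shMAGED2, against 288 and 292 CPM in shCON (log2 change 0.49, SE 0.08, edgeR adjusted p = 0.0118). PFKP, the platelet-type subunit of phosphofructokinase (chromosome 10, 3066333 to 3137712, plus strand), rose to 326 and 314 CPM in shMAGED2, against 216 and 208 CPM in shCON (log2 change 0.60, SE 0.09, edgeR adjusted p = 0.00748). In CPM both libraries of each group were close to each other for these genes. In FPKM this did not hold for GPI, with 118 and 130 FPKM in shMAGED2 and 83.5 and 102 FPKM in shCON. The liver-type PFKL had 114 and 119 CPM in shMAGED2 and 107 and 109 CPM in shCON (edgeR adjusted p = 0.416). The muscle-type PFKM had 111 and 158 CPM in shMAGED2 and 150 and 139 CPM in shCON (edgeR adjusted p = 0.701), with overlapping groups. PFKP made up 62.9% and 57.1% of the phosphofructokinase FPKM in shMAGED2, against 49.9% and 49.7% in shCON. In the fits that lack shCON replicate 1 or 2, the edgeR adjusted p was 0.221 and 0.200 for GPI and 0.119 and 0.147 for PFKP; on log2(FPKM + 1) values limma gave GPI an adjusted p of 0.0979.

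ALDOC, the aldolase of brain (chromosome 17, 28573115 to 28577264, minus strand), had the lowest log2 change of the 34 members. It fell to 18.7 and 16 CPM in shMAGED2, against 40.2 and 36.4 CPM in shCON (log2 change −1.14, SE 0.14, edgeR adjusted p = 0.00453). AC005726.1, a coding model, overlaps ALDOC on the same strand over 4150 bases, so that the assignment of some reads is uncertain. ALDOA, the abundant aldolase, which ranked 25th of all entries by FPKM in shMAGED2 and 21st in shCON, had 1748 and 1679 CPM in shMAGED2 and 1914 and 1891 CPM in shCON. The groups did not overlap, but the log2 change of −0.15 (SE 0.09) did not pass (edgeR adjusted p = 0.261). ALDOC held 0.92% and 0.82% of the aldolase FPKM in shMAGED2 and 1.72% and 1.6% in shCON, so that the aldolase transcript was almost all ALDOA in both groups. TPI1, which interconverts the triose phosphates, had 671 and 695 CPM in shMAGED2 and 568 and 543 CPM in shCON (log2 change 0.30, SE 0.09, edgeR adjusted p = 0.055), just over the threshold; DESeq2 gave an adjusted p of 0.0442. The ALDOA window (chr16:30064029-30064328, plus strand) has 1 match to the capital letters and the ALDOC window (chr17:28576846-28577145, minus strand) has 5.
ALDOA: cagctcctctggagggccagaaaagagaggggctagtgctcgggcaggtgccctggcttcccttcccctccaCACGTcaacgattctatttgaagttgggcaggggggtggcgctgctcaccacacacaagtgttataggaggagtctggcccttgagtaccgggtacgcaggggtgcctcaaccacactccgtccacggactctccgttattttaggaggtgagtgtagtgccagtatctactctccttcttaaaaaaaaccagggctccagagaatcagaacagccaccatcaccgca
ALDOC: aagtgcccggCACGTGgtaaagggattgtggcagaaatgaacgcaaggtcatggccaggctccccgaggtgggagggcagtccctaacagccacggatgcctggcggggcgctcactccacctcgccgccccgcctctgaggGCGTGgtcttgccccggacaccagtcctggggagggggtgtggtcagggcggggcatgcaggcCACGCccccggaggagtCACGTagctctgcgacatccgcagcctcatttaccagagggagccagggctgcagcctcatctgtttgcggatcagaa

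The PFKFB genes encode bifunctional enzymes that make and remove the fructose bisphosphate that activates phosphofructokinase. PFKFB2, the heart-type isoform (chromosome 1, 207034366 to 207081024, plus strand), fell to 38.3 and 51.8 CPM in shMAGED2, against 91.7 and 80.4 CPM in shCON (log2 change −0.93, SE 0.17, edgeR adjusted p = 0.0141). Its groups did not overlap. PFKFB3, the isoform with the strongest kinase activity, had 41.6 and 49 CPM in shMAGED2 and 43 and 47.9 CPM in shCON, a log2 change of 0.00 (SE 0.13, edgeR adjusted p = 0.985). PFKFB4 had 34.3 and 42.1 CPM in shMAGED2 and 30.5 and 32.5 CPM in shCON (log2 change 0.28, SE 0.14, edgeR adjusted p = 0.216). PFKFB2 had the largest of the 3 shares of family FPKM in shCON (41.9% and 36.4%) and the smallest in shMAGED2 (23.5% and 24.5%), where PFKFB4 had the largest (39.0% and 40.3%). Without shCON replicate 1, PFKFB2 had an edgeR adjusted p of 0.0691. YOD1 overlaps PFKFB2 on the opposite strand over 9132 bases, and whether counting used strand was not stated.

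Of the 6 genes of the payoff phase 3 rose, against 12.3% of all genes tested, and all 6 had positive log2 changes, as had 7689 of all 15293 genes; the step as such was not tested. PGAM1, the mutase that moves the phosphate within phosphoglycerate (chromosome 10, 97426160 to 97433441, plus strand), rose to 570.1 and 613 CPM in shMAGED2, against 436 and 409 CPM in shCON (log2 change 0.49, SE 0.09, edgeR adjusted p = 0.0162). ENO1, the ubiquitous enolase (chromosome 1, 8861000 to 8879250, minus strand), rose to 2529 and 3055 CPM in shMAGED2, against 2102 and 2062 CPM in shCON (log2 change 0.42, SE 0.12, edgeR adjusted p = 0.0483). PKM, the pyruvate kinase gene whose transcripts are spliced to the M1 or M2 form (chromosome 15, 72199029 to 72231822, minus strand), rose to 2850.5 and 2607 CPM in shMAGED2, against 2089 and 2051 CPM in shCON (log2 change 0.40, SE 0.09, edgeR adjusted p = 0.0314). The groups did not overlap for these 3 genes, and the values per gene do not tell the 2 forms of PKM apart. These 3 calls depended on the setting. On log2(FPKM + 1) values limma gave adjusted p-values of 0.0808 for PGAM1, 0.247 for ENO1 and 0.163 for PKM. With the replicate number as a block, edgeR gave adjusted p-values of 0.0819 for ENO1 and 0.0773 for PKM. ENO1 also missed the threshold in edgeR with upper-quartile factors (adjusted p 0.0671), with library size alone (0.120) and with a filter of 5 CPM (0.0524). Dropping shCON replicate 1 or 2 gave an edgeR adjusted p of 0.187 and 0.274 for PGAM1, of 0.382 and 0.414 for ENO1, and of 0.396 and 0.431 for PKM.

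GAPDH, which oxidises glyceraldehyde phosphate and ranked 13th of all entries by FPKM in shMAGED2 and 14th in shCON, had 5135 and 4029 CPM in shMAGED2 and 4020.0 and 3949.8 CPM in shCON (log2 change 0.20, SE 0.13, edgeR adjusted p = 0.324). Only shMAGED2 replicate 1, the library with the higher share of mitochondrially encoded counts, stood clear of the others. PGK1, the first step that regains ATP, showed the reverse order of the shMAGED2 libraries, with 605 and 847 CPM in shMAGED2 and 600.5 and 607 CPM in shCON (edgeR adjusted p = 0.286). ENO2, the enolase of neurons, had 222 and 291 CPM in shMAGED2 and 216 and 225 CPM in shCON (edgeR adjusted p = 0.306). For PGK1 and ENO2 it was shMAGED2 replicate 2 that stood apart. ENO1 held 94.0% and 93.5% of the enolase FPKM in shMAGED2 and 93.1% and 92.7% in shCON. Of the 34 members, 15 have pseudogenes named after them in GENCODE, 108 in all and 62 of them of GAPDH; they are not analysed here, and the counting of reads shared with them was not stated. Coding models overlap GPI, ALDOA, PFKFB4, PGK1, ENO2 and LDHB on the same strand, which leaves some of their reads uncertain; ATP7A overlaps PGK1 over 139657 bases. PFKM, TPI1, PGK1, PDK2 and PDHA1 overlap a coding gene on the opposite strand.

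Of the members that rose, LDHA had the largest log2 change, and per length its level was above that of its sister gene in shMAGED2 and below it in shCON. LDHA, the subunit that favours the reduction of pyruvate to lactate (chromosome 11, 18394388 to 18408425, plus strand), rose to 1453 and 1619 CPM in shMAGED2, against 761 and 773 CPM in shCON, a 2.00-fold change (log2 change 1.00, SE 0.10, edgeR adjusted p = 0.00202). LDHB, the subunit that favours the oxidation of lactate, had 516 and 709 CPM in shMAGED2 and 638 and 619.8 CPM in shCON, with overlapping groups (log2 change −0.04, SE 0.16, edgeR adjusted p = 0.882). Per length, the ratio of LDHA to LDHB was 1.68 and 1.67 in shMAGED2 and 0.90 and 0.87 in shCON. LDHA thus made up 62.6 ± 0.11% of the lactate dehydrogenase FPKM in shMAGED2 and 46.9 ± 0.56% in shCON (SD, n = 2 each). The shift of 15.7 percentage points was larger than the difference within either pair. In CPM, which is not scaled to length, the share of LDHA was 71.7 ± 3.01% in shMAGED2 and 54.9 ± 0.79% in shCON. The close agreement within shMAGED2 was thus seen in FPKM only, and in CPM LDHA was above LDHB in both groups. The deposited FPKM values of LDHA were 605 and 883 in shMAGED2 and 431 and 405 in shCON, farther apart within shMAGED2 than the counts, and limma on log2(FPKM + 1) gave an adjusted p of 0.0511. Its counts and FPKM implied a gene length of 2270 and 1858 bases in shMAGED2 and of 1798 and 1951 bases in shCON. LDHA passed in each edgeR fit with a library left out, with adjusted p-values up to 0.0393. The LDHA window (chr11:18394313-18394612, plus strand) has 6 matches to the capital letters, 2 CACGTG among them, and the LDHB window (chr12:21657793-21658092, minus strand) has 1.
LDHA: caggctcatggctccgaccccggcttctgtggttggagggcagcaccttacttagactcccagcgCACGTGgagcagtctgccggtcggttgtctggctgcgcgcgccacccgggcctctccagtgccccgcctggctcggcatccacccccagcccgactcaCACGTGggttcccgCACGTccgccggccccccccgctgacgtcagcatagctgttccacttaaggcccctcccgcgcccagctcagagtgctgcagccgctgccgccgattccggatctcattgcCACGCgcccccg
LDHB: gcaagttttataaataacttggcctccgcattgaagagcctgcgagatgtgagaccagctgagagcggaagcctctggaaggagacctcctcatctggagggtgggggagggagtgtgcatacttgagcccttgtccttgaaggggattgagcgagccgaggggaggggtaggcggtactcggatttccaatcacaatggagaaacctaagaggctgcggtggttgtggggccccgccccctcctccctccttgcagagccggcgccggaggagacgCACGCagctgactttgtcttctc

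**Figure D3:**
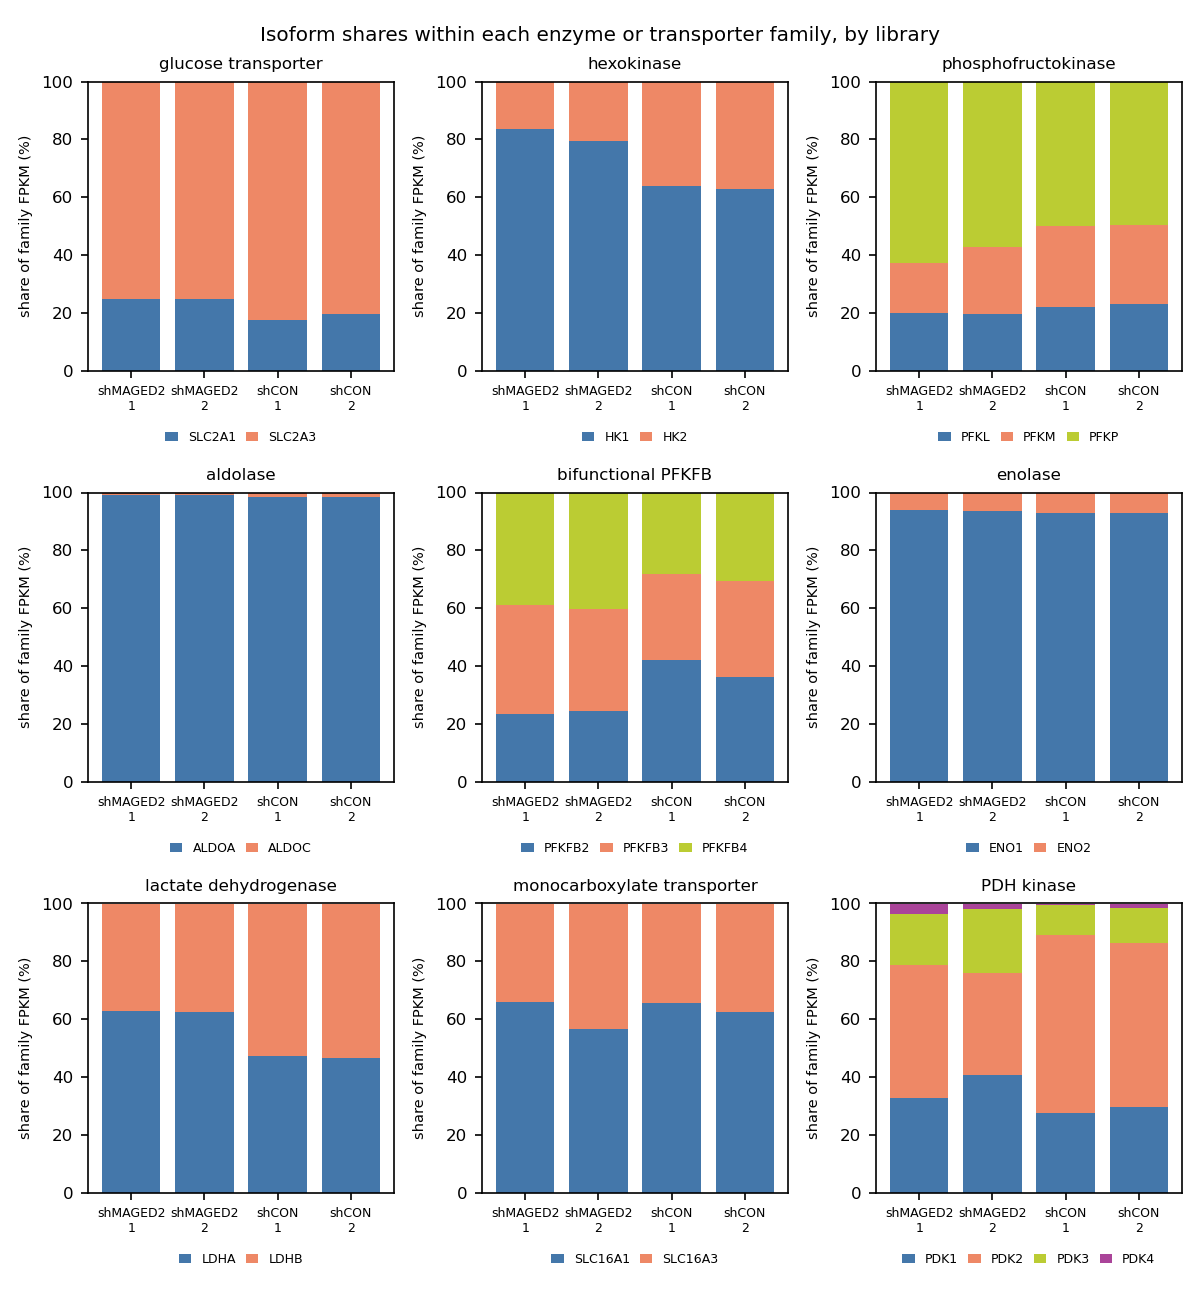
Share (%) of each isoform in the summed FPKM of its family, in each of the 4 libraries (shMAGED2 replicates 1 and 2, then shCON replicates 1 and 2); colours mark the isoforms of each panel. LDHA is 62.6% of lactate dehydrogenase in shMAGED2 and 46.9% in shCON, HK1 81.5% and 63.2% of hexokinase, and the monocarboxylate transporters overlap.

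Neither transporter of lactate passed the test. SLC16A1 (MCT1, which carries lactate in either direction) had 133 and 155 CPM in shMAGED2 and 147.6 CPM in each shCON library (log2 change −0.04, SE 0.11, edgeR adjusted p = 0.839). SLC16A3 (MCT4, known as the exporter of glycolytic cells) had 39.9 and 76.8 CPM in shMAGED2 and 50.3 and 50.6 CPM in shCON (log2 change 0.21, SE 0.29, edgeR adjusted p = 0.635). The shMAGED2 libraries lay on either side of the shCON libraries for both genes. CSNK1D overlaps SLC16A3 on the opposite strand over 22107 bases.

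Among the kinases that phosphorylate and switch off pyruvate dehydrogenase, PDK3 rose and the others did not pass. PDK3 (chromosome X, 24465221 to 24541862, plus strand) rose to 16.4 and 14.7 CPM in shMAGED2, against 9 and 8.59 CPM in shCON (log2 change 0.82, SE 0.17, edgeR adjusted p = 0.0198). PDK1 had 65.3 and 69 CPM in shMAGED2 and 53.8 and 56.8 CPM in shCON (log2 change 0.28, SE 0.10, edgeR adjusted p = 0.104), and PDK2 had 38.6 and 22.9 CPM in shMAGED2 and 44.9 and 39.3 CPM in shCON (log2 change −0.46, SE 0.25, edgeR adjusted p = 0.236). The groups did not overlap for these 3 genes. PDK4 was low, with 92 and 51 counts in shMAGED2 and 10 and 34 counts in shCON (log2 change 1.65, SE 0.75, edgeR adjusted p = 0.164). PDK2 had the largest share of the kinase FPKM in shCON, 61.5% and 56.6%, and 45.8% and 35.2% in shMAGED2, while PDK1 had 32.8% and 40.8% in shMAGED2 and 27.6% and 29.7% in shCON. PDHA1, the catalytic subunit that the kinases act on, had 130.0 and 109.5 CPM in shMAGED2 and 95.1 and 92.5 CPM in shCON (log2 change 0.35, SE 0.12, edgeR adjusted p = 0.0749). PDHB, its partner, had 67.9 and 91.3 CPM in shMAGED2 and 72.6 and 74.6 CPM in shCON (edgeR adjusted p = 0.634). With shCON replicate 1 or 2 left out, PDK3 had an edgeR adjusted p of 0.135 and 0.152.

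In the pentose phosphate pathway PGD and TKT fell, and RPIA and TALDO1 did not pass. PGD, the phosphogluconate dehydrogenase that yields NADPH and ribulose phosphate (chromosome 1, 10398592 to 10420144, plus strand), fell to 225 and 182 CPM in shMAGED2, against 428 and 408 CPM in shCON, or 0.49 of the control level (log2 change −1.04, SE 0.12, edgeR adjusted p = 0.00402). Like ALDOC, it passed in each alternative fit run, among them those without shCON replicate 1 or 2, in which edgeR gave PGD adjusted p-values of 0.0209 and 0.0101. TKT, the transketolase that links ribose phosphate back to glycolysis (chromosome 3, 53224707 to 53256052, minus strand), fell to 339 and 326 CPM in shMAGED2, against 477 and 485 CPM in shCON (log2 change −0.53, SE 0.09, edgeR adjusted p = 0.00959). In both cases the groups lay well apart. The size of the change of TKT depended on the unit, since its FPKM was 104 and 106 in shMAGED2 and 204 and 214 in shCON, a log2 ratio of −0.99. The counts and FPKM of TKT implied a gene length of 3093 and 3107 bases in shMAGED2 and of 2389 and 2320 bases in shCON; over the 34 members the log2 ratio by FPKM differed from the log2 change by counts by a median of 0.06, and by 0.46 for TKT. After shCON replicate 1 or 2 was left out, TKT had an edgeR adjusted p of 0.147 and 0.168. TALDO1, the transaldolase of the same branch, had 115 and 155 CPM in shMAGED2 and 154 and 153 CPM in shCON (edgeR adjusted p = 0.419), and RPIA, the ribose phosphate isomerase, 8.52 and 14.2 CPM in shMAGED2 and 9.11 and 10.3 CPM in shCON (edgeR adjusted p = 0.579).

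**Figure D4:**
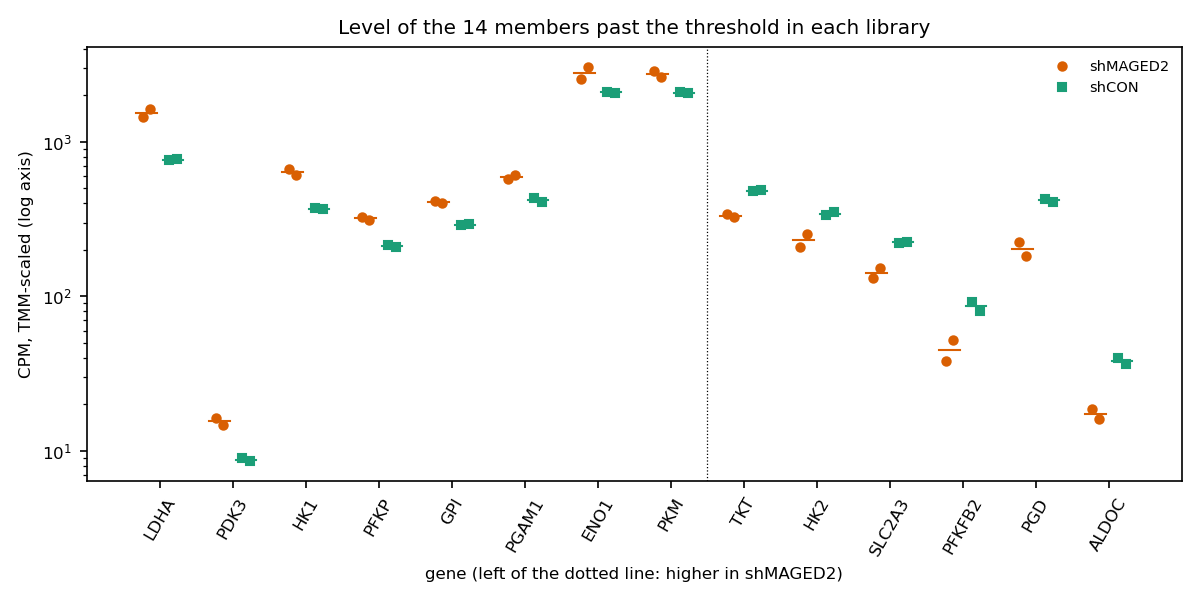
CPM scaled by TMM (y axis, log scale) of the 14 members with an adjusted p under 0.05; each point is 1 library, each short line the mean of 2, shMAGED2 in orange to the left of shCON in green, and genes left of the dotted line were higher in shMAGED2. The groups overlap in 0 of the 14, which were chosen by the test on these same counts, so this is no separate support. Of all genes tested, 66.0% did not overlap either. Lowest of the 14 was PDK3, at 15.5 ± 1.22 CPM in shMAGED2 and 8.80 ± 0.29 CPM in shCON. Highest was ENO1, at 2792 ± 372 and 2082 ± 28.1 CPM (SD, n = 2 each).

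Of 49 other genes of glucose entry, glycolysis, pyruvate handling and the pentose phosphate pathway, 34 were tested, of which 4 rose (11.8%) and 6 fell (17.6%), shares near and somewhat above those of all genes tested. Their median log2 change was −0.11. The 15 genes not tested had at most 17 counts in a library, among them the tissue-restricted forms HK3, PKLR, LDHC and TKTL1. PRPS1, which makes phosphoribosyl pyrophosphate from ribose phosphate, rose to 55.5 and 72 CPM in shMAGED2, against 30.7 and 25.7 CPM in shCON (log2 change 1.18, SE 0.17, edgeR adjusted p = 0.00708). SHPK, the sedoheptulose kinase, rose to 55.7 and 58.9 CPM in shMAGED2, against 32.5 and 34.9 CPM in shCON (log2 change 0.76, SE 0.11, edgeR adjusted p = 0.00743). These genes and PGM2, a phosphopentomutase (log2 change 0.66, SE 0.13, edgeR adjusted p = 0.0177), were higher in both shMAGED2 libraries than in either shCON library.

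The 6 genes that fell included transporters of sugars and of pyruvate. The sugar transporters SLC2A10 (log2 change −2.02, SE 0.30, edgeR adjusted p = 0.00748) and SLC2A6 (−1.004, SE 0.18, edgeR adjusted p = 0.0145) fell. MPC1, a subunit of the mitochondrial pyruvate carrier, fell to 11 and 9.12 CPM in shMAGED2, against 18.4 and 18.9 CPM in shCON (log2 change −0.89, SE 0.17, edgeR adjusted p = 0.0157), while its partner MPC2 had 85.1 and 115 CPM in shMAGED2 and 115 and 123 CPM in shCON (edgeR adjusted p = 0.29). LDHD, which oxidises D-lactate, and GALM, a sugar mutarotase, fell by 0.86 (SE 0.22) and 0.50 (SE 0.12) on the log2 scale, with edgeR adjusted p-values of 0.0391 and 0.0357. The remaining calls were a rise of BSG, the chaperone of MCT1 and MCT4 (0.30 on the log2 scale, SE 0.08), and a fall of the inositol transporter SLC2A13 (−0.58, SE 0.16), with edgeR adjusted p-values of 0.0479 and 0.0442. MPC2, BSG and SLC2A13 were named after their values were seen. With shCON replicate 1 or 2 left out, fewer of these 34 genes passed in edgeR, as did fewer of all genes tested.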

How the data were processed

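RNA was sequenced from U87-MG cells, 2 shMAGED2 and 2 shCON libraries prepared with a NEBNext Ultra kit according to the labels' protocols. The authors' deposited counts are whole numbers per gene, not normalised, and the deposited FPKM values are relative to gene length and library total; for both, the submitters' processing notes name hg38, HISAT2, SAMtools and StringTie. Versions, annotation, strandedness and multi-mapping rules were not stated, and genes that overlap or have near-identical copies are uncertain.

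The test was edgeR 4.0.16 under R 4.3.3, run on counts (filterByExpr, TMM, robust quasi-likelihood fit, group as the only term, two-sided). Adjustment was by Benjamini-Hochberg across all 15293 genes tested, with a threshold of 0.05 and 2 residual degrees of freedom. CPM are scaled by TMM; SE derive from the F statistic. Isoform shares use FPKM, and symbols of 34 members were matched exactly. Alternatives were other scaling factors, DESeq2 1.42.0, limma 3.58.1 (voom, and trend on log2(FPKM + 1) or log2(FPKM + 0.1), keeping genes at FPKM 1 or more in 2 libraries), other filters (none, or 5 CPM in 2 libraries), no robust estimation, a replicate block, each library left out, and removal of the mitochondrially encoded genes, which was added once the data had been seen. With a pseudocount, log2 FPKM differences of low genes are understated. The edgeR test was run on simulated counts in which each gene had the same dispersion in both groups. That run therefore does not cover the unequal spread of the shMAGED2 and shCON pairs. Limits from 3 counts cover counting error only.

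Members, lists, tests and the naming rule were chosen with earlier results of these data known. The rule accounts for every member, gives values per library for each member past the threshold and for the isoforms of its family, and names up to 8 other pathway genes with the smallest p past the threshold. Promoter sequences are from RefSeq (GRCh38.p14) by symbol, with 31 of 34 members matched; gene positions are from GENCODE 29, in which all 19974 Ensembl identifiers were found.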

Additional observations from a re-analysis of the deposited data

How the results depend on the processing

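With another scaling, DESeq2, limma-voom, another filter, no robust estimation or no mitochondrially encoded genes, 7 to 9 members were higher and 6 lower. Of all genes, 3361 to 4036 passed in these fits, against 3649 as reported. On FPKM values limma called 3 members higher with either pseudocount and 6 lower. Of all genes it called 2743 with a pseudocount of 1 and 2667 with 0.1, also fewer than reported. The counts with 1 library left out ranged from 1 to 18 members higher and from 2 to 12 lower, from 1 to 6 other pathway genes higher and from 1 to 11 lower, and from 1100 to 7447 genes in all. MAGED2 passed in every alternative. No called member changed direction in any alternative. Members not called did so: without shMAGED2 replicate 1 and without shMAGED2 replicate 2 the log2 changes were 0.13 and −0.38 for PFKM, 0.17 and −0.29 for LDHB, 0.071 and −0.15 for SLC16A1, 0.61 and −0.34 for SLC16A3, 0.31 and −0.12 for PDHB, 0.55 and −0.19 for RPIA, 0.013 and −0.41 for TALDO1, and 0.11 and −0.13 for PFKFB3. PFKFB3, at −0.0043 as reported, was also positive in limma-voom (0.0013), with mitochondrially encoded genes removed (0.0012) and without shCON replicate 2 (0.075). The cause was not tested. The replicate numbers share only a number: deviations of same-numbered libraries had a correlation of −0.02 across genes. With a replicate block edgeR called 6 members higher, 6 lower and 3336 genes in all, and 3 and 4 other pathway genes higher and lower. With 2 libraries a group, and shMAGED2 libraries that differ, small changes were near the limit of what passed: at 1.23-fold BSG passed and TPI1 did not.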

Other observations

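The values of SLC16A7, the high-affinity monocarboxylate transporter MCT2, depended on the unit. In counts it had 56.5 and 10.2 CPM in shMAGED2 replicates 1 and 2, and 10.5 and 12.0 CPM in shCON, and did not pass the test (log2 change 1.56, SE 0.76, edgeR Benjamini-Hochberg adjusted p = 0.204). In the deposited FPKM the difference between the shMAGED2 libraries was much smaller, with 6.59 and 4.69 FPKM in shMAGED2 and 4.91 and 5.75 FPKM in shCON (log2 ratio 0.08). It was named after its values were seen.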
